A study of Mus musculus with 48 samples.

Results

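Chromatin accessibility was compared between progenitor-state CD8 T cells carrying a guide RNA against Dusp5 and progenitor-state cells carrying the OTC control guide, both taken from B16-OVA tumours of aged mice. The comparison used 4 of the 48 deposited ATAC-seq libraries, 2 labelled A_Dusp5_Tprog (gene knockout: Dusp5KO) and 2 labelled A_OTC_Tprog (gene knockout: OTC control), chosen by their labels and not by any measured value. All 53868 peaks of the deposited table were tested. B16-OVA is a mouse melanoma line that makes ovalbumin, and OT-1 T cells carry a transgenic receptor that recognises an ovalbumin peptide. Every group shared the same background: CD45.1 Cas9 OT-1 donor cells from spleen, transduced with a lentivirus that carried 1 guide and an ametrine reporter, transferred into the host a day before the tumour, and sorted as reporter-positive cells on day 15. The letters A and Y in the labels were read as aged and young hosts. The host ages, what the letters OTC stand for and the position of the Dusp5 guide are not given in the sources used here.

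Cells were sorted on Slamf6, a surface receptor kept by progenitor cells, and Tim-3, an inhibitory receptor that is the product of Havcr2. Tprog cells were Slamf6-positive and Tim-3-negative, Ttran cells positive for both, Tterm cells positive for Tim-3 alone, and Ttad cells negative for both. Cells of independent mice were pooled into each library, from 5000 to 50000 cells, so the p-values measure the spread between pools and not between single mice. Other groups of the series entered as context: the Dusp5 and OTC guides in aged Ttran, Tterm and Ttad cells and in young Tprog cells, and a Zfp219 guide in aged Tprog cells. Peak signal is the deposited value, which is reads divided by a size factor of the library. The Dusp5 libraries held 11495701 and 14722397 reads in peaks and the OTC libraries 11511619 and 14660613, within the range of 5638413 to 29942755 over all 48. On log2(signal + 1), the replicates correlated at 0.965 for Dusp5 and 0.967 for OTC over peaks, against 0.955 to 0.963 between the groups.

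DUSP5 is a phosphatase of the nucleus that removes the activating phosphates from the ERK kinases. Its gene is itself switched on by ERK signalling, so it belongs to the feedback brakes of the Ras-ERK cascade together with other dual-specificity phosphatases, the Sprouty and the Spred proteins. In T cells the cascade runs downstream of the antigen receptor and induces immediate early genes such as Egr1 and Fos. Progenitor exhausted T cells, which depend on the transcription factor TCF1 (gene Tcf7), renew themselves and give rise to the other exhausted states.

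The promoters that the findings turn on are printed first, as the 250 bases before the annotated start site on the gene's strand (RefSeq, GRCm38.p6). Capitals in the Dusp5 promoter (chr19:53528895-53529144, plus strand) mark CArG boxes, the kind of sequence bound by serum response factor, whose partner proteins are substrates of ERK.
Dusp5: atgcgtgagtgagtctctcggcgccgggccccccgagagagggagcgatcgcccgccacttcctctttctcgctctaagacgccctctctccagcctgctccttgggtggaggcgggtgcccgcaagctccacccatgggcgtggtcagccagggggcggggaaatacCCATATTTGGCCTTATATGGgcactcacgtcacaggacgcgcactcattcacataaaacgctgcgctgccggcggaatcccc
Capitals in the promoters of Hspa1a (chr17:34972157-34972406, minus strand) and Hspa1b (chr17:34959239-34959488, minus strand) mark a heat shock element, searched as GAANNTTC on both strands. These promoters are shown because the start-site peaks of both genes were called higher with the Dusp5 guide.
Hspa1a: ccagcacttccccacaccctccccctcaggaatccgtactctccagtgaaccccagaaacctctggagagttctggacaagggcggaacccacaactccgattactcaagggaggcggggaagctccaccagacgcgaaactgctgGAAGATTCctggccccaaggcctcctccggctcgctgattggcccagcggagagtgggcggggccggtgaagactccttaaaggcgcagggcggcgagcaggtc
Hspa1b: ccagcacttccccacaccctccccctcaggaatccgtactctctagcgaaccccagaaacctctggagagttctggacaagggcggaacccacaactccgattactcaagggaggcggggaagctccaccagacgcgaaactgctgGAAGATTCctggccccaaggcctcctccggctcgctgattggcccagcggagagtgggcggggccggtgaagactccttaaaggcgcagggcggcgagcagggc
Counted from the first printed base, the Dusp5 matches started at bases 169 and 179, next to each other, and the heat shock element at base 147 in both Hspa1 promoters. The CArG box was found in 1.47% of 32817 RefSeq promoters and in 0.998% of the 13222 whose start site lay in a peak, and the heat shock element in 6.69% and 4.59%. The Hspa1a and Hspa1b promoters were identical at 247 of 250 bases (98.8%), so reads that fell in the shared stretches could not be told apart, and the values of the 2 genes are uncertain to that extent.

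The targeted locus was read first. The peak over the Dusp5 start site (chr19:53528476-53530901) had a signal of 942 and 1084 in the Dusp5 libraries and 893 and 889.9 in the OTC libraries, so it was not lower with the guide. The difference was 0.18 on log2(signal + 1) (SE 0.08, adjusted p = 0.413 by limma). Within the gene body, the peak at chr19:53535928-53537370 gave 702 and 672 against 718 and 728, and the peak at chr19:53538795-53539713 gave 288 and 291 against 269 and 333. Neither passed the test. Of the 17 peaks assigned to Dusp5, 12 were on the lower side (52.5% of all peaks) and 1 was called lower (0.652% of all peaks). The called peak lay at chr19:53460413-53462012, 67133 bp outside the gene, with 1006 and 987 against 1191 and 1264. Its log2 difference was -0.30 (SE 0.08, limma adjusted p = 0.0331, edgeR adjusted p = 0.0475, DESeq2 adjusted p = 0.198). It missed the threshold in each of the 4 fits that left out a library. Accessibility does not read the edited bases, so none of these peaks checks the knockout.

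With the Dusp5 guide, 351 peaks lost and 96 peaks gained accessibility in aged Tprog cells, 447 of 53868 peaks in all (0.830%; 0.652% lower and 0.178% higher; limma with Benjamini-Hochberg adjusted p under 0.05). The changes ran from -3.96 to 3.04 on the log2 scale, with medians of -0.72 among the falls and 0.71 among the rises. In 158 of them (0.293% of all peaks) the change was at least 1 on the log2 scale, 126 lower and 32 higher. The values of the 2 Dusp5 libraries did not overlap those of the 2 OTC libraries in 445 of the 447, against 42.5% of all peaks. edgeR's quasi-likelihood test on the recovered reads called 432 peaks (0.802%), 363 of them shared with limma in the same direction (0.674%; 280 lower and 83 higher). DESeq2 on the 4 libraries alone called 153 peaks (0.284%), and 129 of limma's calls were among them. The limma count fell in each of the 4 fits that left out a library. Such a fit leaves 1 library in a group and has less power whichever library is dropped. The fall therefore does not single out a library. A core of 40 peaks (0.0743%), 36 lower and 4 higher, was called in all 4 of these fits, and 5711 peaks had an unadjusted p under 0.05 with all libraries.

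**Figure D1:**
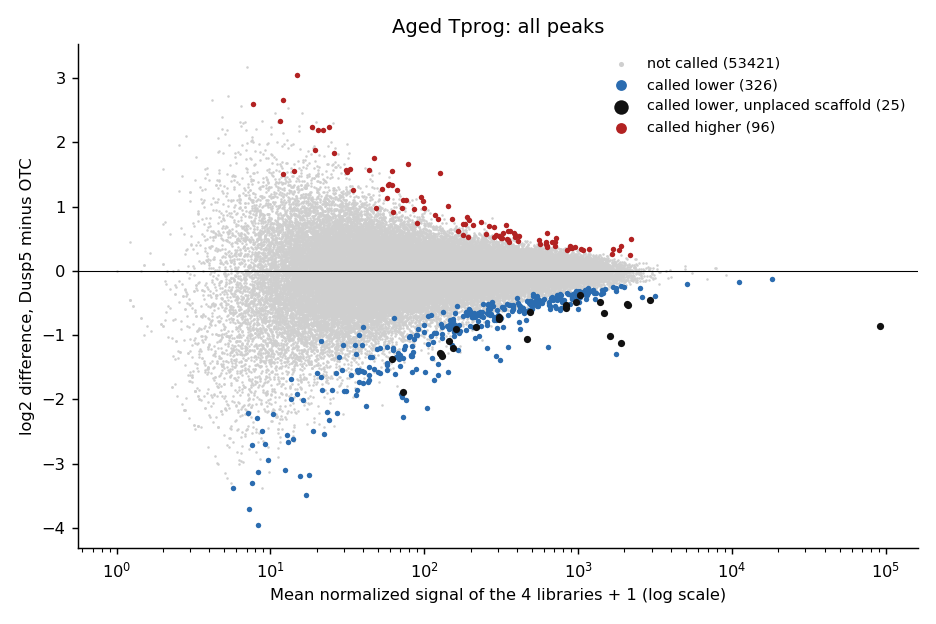
Each point is 1 of the 53868 peaks, with the mean signal of the 4 libraries on a log axis and the log2 difference, Dusp5 minus OTC, on the vertical axis. Called peaks are coloured, and the 351 lower ones outnumber the 96 higher ones.

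The balance between falls and rises depended on where a peak lay. Peaks over a RefSeq start site, which mark promoters, had 10 rises and 13 falls among 9072 peaks (0.254% called) and a median difference of 0.05. Peaks in gene bodies had 54 rises and 182 falls (0.925%), peaks within 100 kb outside a gene 29 and 104 (0.805%), and peaks with no gene in reach 3 and 52 (1.99%). The share of all signal that lay in start-site peaks was 39.61% and 40.00% in the Dusp5 libraries and 38.10% and 38.27% in the OTC libraries, within the range of 36.5% to 41.1% over all libraries. The median over all peaks was -0.0161, and over the weakest 10% of peaks -0.223. Under TMM factors, another way of scaling libraries, the median over all peaks was -0.00187 and that over start-site peaks 0.06.

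The genes of the core set came first. Libraries of the 2 guides did not overlap at 350 of the 351 falls and at 42.5% of all peaks, so a gap between them adds no support here. Rac1, a small GTPase that reorganises the actin skeleton, had a gene-body peak (chr5:143517072-143518830) with 870.1 and 807 with the Dusp5 guide and 1119 and 1242 with OTC. It fell by 0.49 on the log2 scale (SE 0.08, limma adjusted p = 0.000124). A weaker Rac1 peak (chr5:143511841-143512550) also fell, with 24.7 and 24.5 against 70.2 and 58.6, though in none of the 4 fits that left out a library. Stk24, a kinase of the Ste20 family, had a gene-body peak at chr14:121314858-121316234 with 174 and 189 against 322 and 330.0 (log2 difference -0.84, SE 0.15, limma adjusted p = 0.000508). Its second called peak, at chr14:121344724-121345558, gave 548 and 608 against 882 and 836. St3gal1, a sialyltransferase that caps O-linked sugars on CD8 T cells, had 588 and 622 against 927 and 923 at chr15:67128279-67130480 (log2 difference -0.61, SE 0.11, limma adjusted p = 0.000261). Armc7 gave 972 and 999.8 against 1241 and 1329.9, and Tbc1d9b, a Rab GTPase activator, 21.3 and 25.4 against 65.7 and 71.9. A peak 45020 bp from Eps8l3 (chr3:107827355-107828840) gave 546 and 509 against 793 and 735. In all of these the Dusp5 libraries lay below both OTC libraries, and all but the weaker Rac1 peak and the second Stk24 peak were called in each of the 4 fits.

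The 4 rises of the core set were at Cdc27, Supt16, Zfp280d and Hspa1a. Cdc27, a subunit of the anaphase-promoting complex, had 117 and 118 with the Dusp5 guide against 37.4 and 35.5 at chr11:104537992-104539024, 3.16-fold higher (log2 difference 1.66, SE 0.31, limma adjusted p = 0.000529). Supt16, a subunit of the histone chaperone FACT, had 189 and 185 against 55.5 and 75.4 at chr14:52166262-52167297, 2.86-fold higher (limma adjusted p = 1.08e-05). A peak 3994 bp from Zfp280d gave 84.1 and 91.9 against 32.8 and 35.5. These 3 peaks were weak next to the start-site peak of Hspa1a. At Cdc27 and Supt16 the Zfp219 guide was also higher than OTC, with values given further on.

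Hspa1a and Hspa1b encode the inducible HSP70 chaperones, which refold damaged proteins, and lie side by side in the MHC region of chromosome 17. The Hspa1a peak over the promoter printed above (chr17:34968399-34972680) had 2524 and 2639 with the Dusp5 guide and 1877 and 1782 with OTC, a rise of 1.41-fold. The log2 difference was 0.50 (SE 0.06, limma adjusted p = 1.05e-08, edgeR adjusted p = 4.86e-10). The Hspa1b peak (chr17:34957005-34960196) gave 1856 and 1932 against 1535 and 1456 (log2 difference 0.34, SE 0.06, limma adjusted p = 0.000898). Hsp90aa1, the inducible HSP90, rose at a gene-body peak (chr12:110688567-110691123), with 831 and 795 against 574 and 615 (log2 difference 0.45, SE 0.09, limma adjusted p = 0.003). All 3 were chosen for mention after their values were seen, and when a library was left out Hspa1b was called in 3 and Hsp90aa1 in 2 of the 4 fits. Zfp219-guide Tprog libraries, made from the same state in aged hosts, had a mean of 1820.0 at the Hspa1a peak, on the level of the OTC libraries.

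Other start-site peaks that rose were at Tsc1, H2-D1, Hnrnpm, Sord, Gnb2, Glcci1, Igf2bp3 and Unc13a. Tsc1, a brake on mTORC1, had 756 and 735 against 480.1 and 516 (chr2:28640258-28641801; log2 difference 0.58, SE 0.12, limma adjusted p = 0.00266). H2-D1, a classical MHC class I gene, had 1850.0 and 1762 against 1424 and 1579 (log2 difference 0.27, SE 0.07, limma adjusted p = 0.0244). Tsc1 was called in 2 and H2-D1 in 1 of the 4 fits that left out a library. The start-site falls were at Stk11, Il1r2, Gzmd, Gzmf, Plac8, Ifitm2, St6gal1, Asns, Synj2, Wnt10b, Kctd8, Msx3 and Gm4606. Stk11, the kinase LKB1 that activates AMPK, gave 1280.5 and 1402 against 1629 and 1631, and Il1r2, a decoy receptor for interleukin-1, gave 257 and 312 against 411 and 398. Both passed limma (adjusted p = 0.0435 and 0.0372) and missed edgeR's threshold (0.0605 and 0.0538). The granzyme genes Gzmd and Gzmf were close to background: 0 and 3.50 against 12.5 and 18.6 at Gzmd, and 5.61 and 0.88 against 15.9 and 15.1 at Gzmf. Gzmf missed edgeR's threshold (adjusted p = 0.0608), and both granzyme calls were lost with a pseudocount of 8 and in a fit of the compared groups alone. Of the 12 promoters in risen start-site peaks 2 held the heat shock element, both shown above, and of the 21 promoters in fallen ones 3 held it. None of either held a CArG box.

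Rora had the largest number of called peaks of any gene, 4 of its 30, all lower, beside 0.652% of all peaks called lower. It encodes a nuclear receptor best known for driving innate lymphoid and T helper 17 programmes. The 4 called peaks lay in the gene body over 57.1 kb, 651.3 to 708.4 kb from the first start site of this long gene. The peak at chr9:69304122-69306123 gave 1048 and 1121 with the Dusp5 guide and 1432 and 1508 with OTC (log2 difference -0.44, SE 0.08, limma adjusted p = 0.000803). The peak at chr9:69339781-69341024 gave 784 and 809.8 against 1145 and 1263 (log2 difference -0.59, SE 0.11, limma adjusted p = 0.00102). The peaks at chr9:69313017-69315327 (1229 and 1235 against 1572 and 1578) and chr9:69361664-69362707 (158 and 166 against 346 and 224) were also called. Over all 30 Rora peaks 25 were on the lower side and the median was -0.29, beside 52.5% and -0.0161 over all peaks. The first and second peaks named here were called in 3 of the 4 fits that left out a library, the others in 0 and 1.

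**Figure D2:**
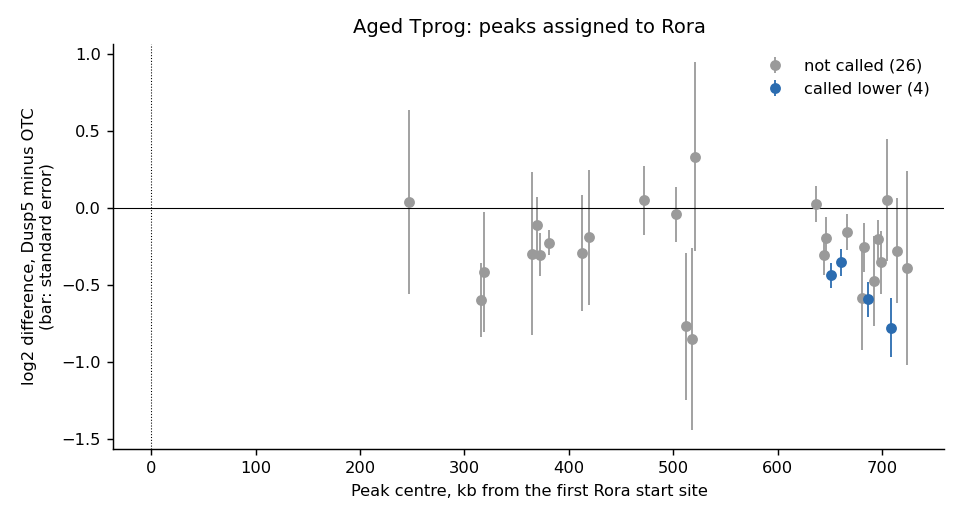
The log2 difference, Dusp5 minus OTC in aged Tprog cells, at each of the 30 Rora peaks is plotted against its distance in kb from the first start site of the gene, with bars of 1 SE. The 4 called peaks, all below 0, lie within 57.1 kb of one another.

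Other genes with at least 3 called peaks were Eps8l3, Abcb9, Prkch and Gm40363, besides Gm21119 and 4932411N23Rik, given further on. Eps8l3, Abcb9, Prkch and Gm40363 had 3 called peaks each, of 11, 7, 29 and 8. Of all peaks, 0.652% were called lower and 0.178% higher. The 3 Eps8l3 peaks were all outside the gene and all lower, by 0.34 to 0.53 on the log2 scale. The calls at chr3:107845909-107846973 and chr3:107852530-107854123 were lost with DESeq2 and when certain single libraries were left out. Abcb9, a lysosomal peptide transporter, had 3 falls, with 209.7 and 161 against 325 and 317 at the most changed one. Its peak at chr5:124074863-124076702 missed edgeR's threshold (adjusted p = 0.0765) and was lost under quantile normalization, TMM factors and DESeq2, so edgeR called 2 of the 3. Prkch, a protein kinase C isoform of the eta type, went both ways. Its gene-body peak at chr12:73656093-73657648 rose (378 and 369 against 266 and 260.0), while the peaks at chr12:73755306-73756906 (174 and 134 against 229 and 249) and chr12:73778773-73780091 (93.1 and 111 against 222 and 157) fell. All 3 Prkch calls were lost with DESeq2. Gm40363, a predicted gene, had 3 rises of 0.25 to 0.39 on the log2 scale. Each Abcb9, Prkch and Gm40363 call was lost when certain single libraries were left out.

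Falls were also called at the transcription factor genes Runx3, Runx2 and Ikzf1 and at the kinase gene Mapkapk3, at 2 peaks each of 23, 45, 18 and 7, beside 0.652% of all peaks called lower. These genes were chosen after their values were seen. Runx3, which maintains the CD8 lineage, fell at chr4:135158551-135160481 (1005 and 1053 against 1265 and 1335; log2 difference -0.34) and at chr4:135168417-135169906 (516 and 429 against 631 and 659; log2 difference -0.45). Runx2 fell at 2 peaks, of which the stronger, in the gene body at chr17:44765945-44767654, gave 706 and 796 against 966 and 953. Ikzf1, the gene of Ikaros, fell at 2 peaks, with 327 and 285 against 431 and 453 at the stronger. Mapkapk3, a kinase downstream of p38 and ERK, fell at chr9:107279852-107281517 (1218 and 1336 against 1659 and 1589.9) and at chr9:107263781-107265421 (309 and 357 against 473 and 473). In each of these peaks both Dusp5 libraries lay below both OTC libraries, but 350 of the 351 falls had no overlap, so this adds no support. Of all peaks, 42.5% had no overlap. With DESeq2 the calls at both Runx3 peaks, at both Ikzf1 peaks and at the Mapkapk3 peak at chr9:107263781-107265421 were lost. The gene-body Runx2 call was lost under TMM factors, with edgeR and DESeq2 and in 3 of the 4 fits that left out a library. The Runx3 call at chr4:135158551-135160481 and the stronger Ikzf1 call were lost with DESeq2 and in all 4 of those fits.

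The genes of the Ras-ERK pathway were then read from lists made up with earlier results of these data known. For comparison with this and the later lists, 5711 of all 53868 peaks had an unadjusted p under 0.05 by limma. Of all peaks, 52.5% were below 0. Of 110 peaks at the 13 ERK feedback brakes, 1 was called, the distal Dusp5 peak, against 0.830% of all peaks called, and the median was -0.04. The strongest peak of Dusp6, the cytoplasmic ERK phosphatase, had 1709.9 and 1969 against 2036 and 1885 (log2 difference -0.09, limma adjusted p = 0.705). Dusp4 had 2107 and 2179 against 2009 and 2098, and Spry1 928 and 830.0 against 890.0 and 909. Groups overlapped at Dusp6 and Spry1, and at Dusp4 the log2 difference of 0.06 missed the threshold (limma adjusted p = 0.826). Of the 113 peaks at 15 genes of the cascade itself none was called by limma, with 5 higher and 5 lower at an unadjusted p under 0.05.

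None of the 151 peaks at 24 ERK response genes was called by limma, with 4 higher and 9 lower at an unadjusted p under 0.05 and a median of 0.000323. Egr1 had 2324 and 2359 at its strongest peak against 2423 and 2350.2. Fosb, an AP-1 subunit, had 2505 and 2503 against 2244 and 2172, which did not overlap, as at 42.5% of all peaks. Its log2 difference was 0.18 (SE 0.06, limma adjusted p = 0.171). Fos gave 1296 and 1298 against 1165 and 1251, and Junb 2323 and 2346 against 2557 and 2463. Neither passed the test (limma adjusted p = 0.726 and 0.560). The p38 and JNK kinases, the other MAP kinases, had none of 36 peaks called (0 higher and 4 lower at an unadjusted p under 0.05). edgeR also called none of the peaks of these 3 lists.

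Among 190 peaks at 16 progenitor genes, 1 was called lower, at Ccr7, against 0.652% of all peaks. The list's median was -0.05, with 109 peaks below 0 and with 6 higher and 19 lower at an unadjusted p under 0.05. Over all 53868 peaks 52.5% were below 0, and 5711 had such a p. Ccr7 guides T cells to lymph nodes, and its gene-body peak (chr11:99142416-99145031) gave 599 and 746 against 991 and 938 (log2 difference -0.53, SE 0.13, limma adjusted p = 0.022). The strongest Lef1 peak had 650.3 and 689.9 against 830.0 and 879, and the strongest Myb peak 1071 and 1032 against 1258 and 1275. Both sets of libraries were apart, as at 42.5% of all peaks, and both missed the threshold (limma adjusted p = 0.067 and 0.098). Tcf7 gave 967 and 981 against 1026 and 1020.3 (log2 difference -0.07, SE 0.09, limma adjusted p = 0.864). Slamf6, the sort marker, gave 536 and 542 against 527 and 562.

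Of 196 peaks at 17 exhaustion genes, with a median of 0.02 and with 11 higher and 9 lower at an unadjusted p under 0.05, 1 was called lower (0.652% of all peaks). It lay 16513 bp from Prdm1, the gene of the repressor BLIMP1 (chr10:44419519-44420661). It gave 209 and 190.0 against 351 and 286 (log2 difference -0.67, SE 0.14, limma adjusted p = 0.00264). Pdcd1, the gene of PD-1, had 2906 and 2825 against 2517 and 2749 over its start site (limma adjusted p = 0.370), and Tox 832 and 771 against 615 and 775. Havcr2 gave 581 and 510.4 against 607 and 554. Of 158 peaks at 18 effector genes, 2 were called and both were higher, against 0.178% of all peaks called higher. The list as a whole did not lean that way: its median was -0.03, 85 peaks were below 0, and at an unadjusted p under 0.05 there were 12 higher and 15 lower. Of all 53868 peaks, 52.5% were below 0 and 5711 had such a p. Zeb2, a transcriptional repressor that acts with T-bet in effector cells, had 267 and 192 against 138 and 134 (chr2:45054247-45056450; log2 difference 0.73, SE 0.18, limma adjusted p = 0.0244). Klrg1, a lectin receptor of effector cells, had 226 and 225 against 162 and 151 (chr6:122268882-122270700; limma adjusted p = 0.0442, edgeR adjusted p = 0.0605). At Eomes the start-site peak gave 639 and 552 against 505 and 447, which missed the threshold (limma adjusted p = 0.203). The calls at Prdm1, Zeb2 and Klrg1 were lost with DESeq2, and that at Klrg1 also in a fit of the compared groups alone. With a library left out, the Prdm1 call held in 2 of 4 fits, those at Ccr7 and Zeb2 in 1 each and that at Klrg1 in 0. None of the 87 peaks at 12 survival genes was called by limma or edgeR, with 3 higher and 6 lower at an unadjusted p under 0.05.

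Cytokine receptor and STAT genes had the lowest median of the 9 lists, -0.13 over 143 peaks, beside -0.0161 over all peaks. Under quantile normalization it was -0.12, and with edgeR -0.11. In all, 97 of the 143 were below 0, and at an unadjusted p under 0.05 there were 29 lower and 2 higher. Of all 53868 peaks, 52.5% were below 0 and 5711 had such a p in either direction. The summed signal was 52540 and 52070 in the Dusp5 libraries and 57090 and 56630 in the OTC libraries. Called falls numbered 3 (0.652% of all peaks were called lower). Il18r1, the interleukin-18 receptor, gave 346 and 348 against 543 and 498 (chr1:40473562-40474101; log2 difference -0.58, SE 0.14, limma adjusted p = 0.0207). A peak 6197 bp from Cish, a brake on cytokine and antigen receptor signals, gave 275 and 302 against 423 and 409.9 (chr9:107308981-107309806; log2 difference -0.53, SE 0.12, limma adjusted p = 0.00984). Stat4, which acts downstream of interleukin-12, gave 559 and 579 against 777 and 751 (chr1:52055666-52056728; limma adjusted p = 0.0456) and was lost under TMM factors and with DESeq2. The call near Cish was also lost with DESeq2. The strongest Il2rb peak, the beta chain shared by the interleukin-2 and interleukin-15 receptors, had 2226 and 2245 against 2516 and 2533 and missed the threshold (limma adjusted p = 0.133). Neither of the falls at Il18r1 and Stat4 held in a fit that left out a library, and the fall at Cish held in 1 of 4.

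Markers of T cells and of other cells were read as a check of the sort, beside 5711 of all 53868 peaks with an unadjusted p under 0.05 and 52.5% below 0. None of 52 peaks at 8 T cell genes was called by limma (1 higher and 6 lower at an unadjusted p under 0.05) and 1 by edgeR, and their summed signal was 22670 and 21750 against 23590 and 23310. B cell, myeloid, melanocyte, NK, and CD4 or regulatory T cell genes had no peak called by limma or edgeR (4 higher and 4 lower at an unadjusted p under 0.05), and Cd79a, Ms4a1, Adgre1, Csf1r, Lyz2, Dct, Tyr, Tyrp1 and Foxp3 had no peak at all. The summed signal at 6 peaks of CD4 or regulatory T cell genes was 1027 and 1085 against 1233 and 1263, without overlap, and 5 of the 6 peaks were below 0 (median -0.29; 2 lower and 0 higher at an unadjusted p under 0.05). Summed signal at 7 melanocyte-gene peaks was 1126 and 1345 against 1344 and 1382, at 13 myeloid-gene peaks 2100 and 2057 against 2015 and 2096, and at 23 NK-gene peaks 4726 and 4514 against 4371 and 4383. Of 18 peaks at fibroblast and endothelial genes 1 was called lower, at Pecam1 (37.0 and 14 against 77.0 and 46.1), beside 0.652% of all peaks. The part of other cells in the results was not tested beyond these values.

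**Figure D3:**
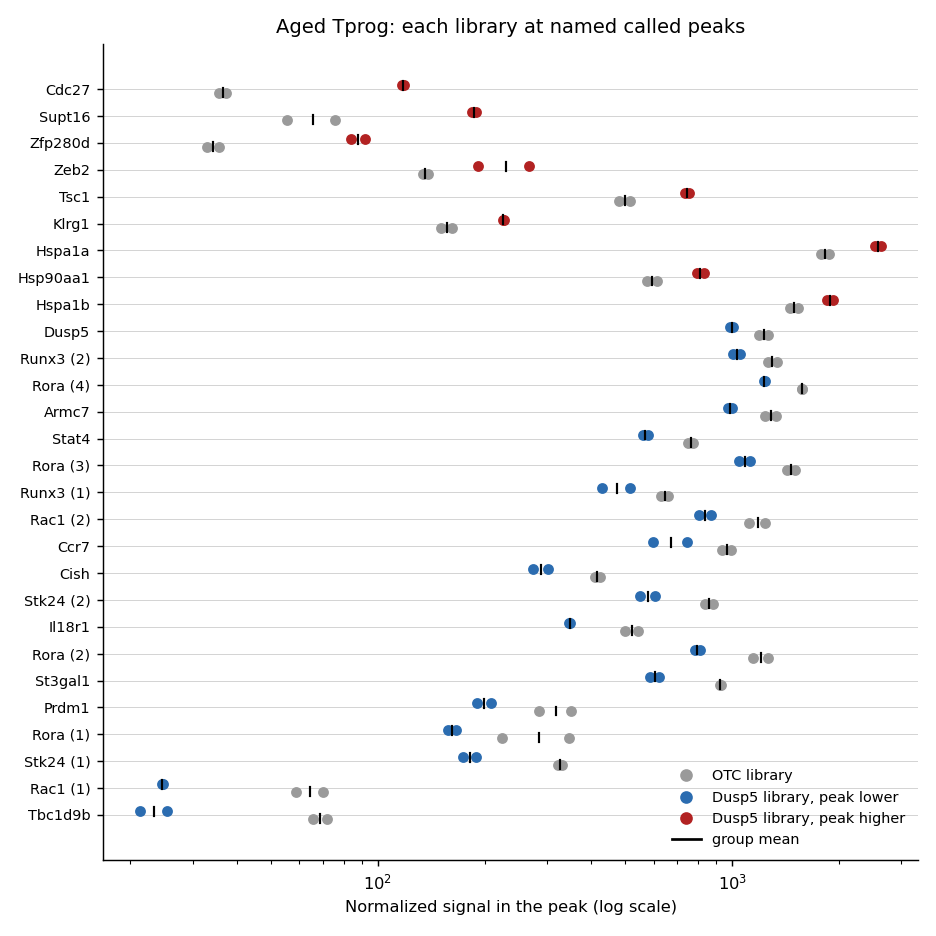
Signal on a log axis is shown for the named called peaks, with 1 point for each of the 2 Dusp5 and 2 OTC libraries in aged Tprog cells. A number after a gene tells several peaks of that gene apart, and the libraries of the 2 guides do not overlap at the Hspa1a peak (2524 and 2639 against 1877 and 1782) or at the Rora peaks. The same holds at 445 of the 447 called peaks and at 42.5% of all peaks.

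The largest changes at gene-assigned peaks had mean signals of 20.9 (Ptpn12) to 126.3 (Supt16), beside a median of 92.8 over all peaks. The 12 largest rises, by a rule that required a mean signal of at least 20 and no overlap, were at Sobp, Ptpn12, Rabggta, Camk1g, Atxn1, Phactr4, Spata13, Alox5ap and Lpgat1 besides Cdc27, Supt16 and Zfp280d. Ptpn12, a tyrosine phosphatase that acts on the cytoskeleton, gave 35.9 and 33.3 against 10.2 and 4.44 (log2 difference 2.19, SE 0.47, limma adjusted p = 0.00523). Sobp gave 44.8 and 31.5 against 11.3 and 4.44. When a library was left out, Ptpn12 was called in 2 and Sobp in 0 of 4 fits. Alox5ap, which feeds leukotriene synthesis, gave 43.7 and 46.4 against 19.2 and 11.5. The 12 largest falls were at Vmn1r48, LOC100504180, Sult2a3, Insig2, Duxf3, Myo15, Spata31d1b, Lipo1, Dnah14, Gm21119, D430041D05Rik and 4930438A08Rik. Vmn1r48 belongs to the vomeronasal receptors and Duxf3 to the Dux homeobox genes. The peak assigned to Insig2 lay 99681 bp from that gene, close to the limit of 100 kb, and missed edgeR's threshold (adjusted p = 0.058). Duxf3 gave 33.6 and 41.1 against 149 and 187 (log2 difference -2.14, SE 0.32, limma adjusted p = 5.74e-06), and Vmn1r48 10.1 and 2.63 against 38.5 and 33.7.

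Peaks on sequences not placed on a chromosome formed a group of their own. Of 110 such peaks, 25 were called lower and none higher, beside 0.652% of all peaks called lower and 0.178% higher. In all, 94 were below 0, beside 52.5% of all peaks. The median was -0.50, which stayed between -0.42 and -0.52 under quantile normalization, TMM factors and edgeR. The strongest of them, 45855 bp wide, had 67556 and 63154 with the Dusp5 guide against 120762 and 116353 with OTC (log2 difference -0.86, SE 0.02, limma adjusted p = 6.6e-54). Quantile normalization set the difference at this peak to 0, since it holds the same rank in these libraries. These peaks took up 0.788% and 0.745% of all signal in the Dusp5 libraries, 1.27% and 1.23% in OTC and 1.29% and 1.33% in the Zfp219 Tprog libraries. A peak on chromosome 17 with no gene in reach (chr17:13550716-13553143) moved the same way, with 1016 and 1009 against 2507 and 2466. So did peaks in or near Zfp825 (362 and 409.7 against 845 and 912), Apba2 (164 and 171 against 416 and 425), Smgc, Cldn34d and Smo, and the 3 called peaks each near Gm21119 and 4932411N23Rik. Copy number was not measured, and where a locus has several copies the counting could split its reads, so values there are uncertain.

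Of the 36 falls in the core set, 14 were on these unplaced sequences, 6 were elsewhere with no gene, and 16 had a gene. The 16 comprised the 6 peaks at Tbc1d9b, Stk24, St3gal1, Eps8l3, Rac1 and Armc7, and 10 peaks at Duxf3, Gm21119 (3 peaks), Smgc, Apba2, Smo, Zfp825, Cldn34d and BC048403 that were above 0 in aged Tterm cells. Of all 36 falls in the core set, with or without a gene, 30 were above 0 in aged Tterm cells. Without the unplaced sequences, limma called 404 peaks, 310 lower and 94 higher.

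**Figure D4:**
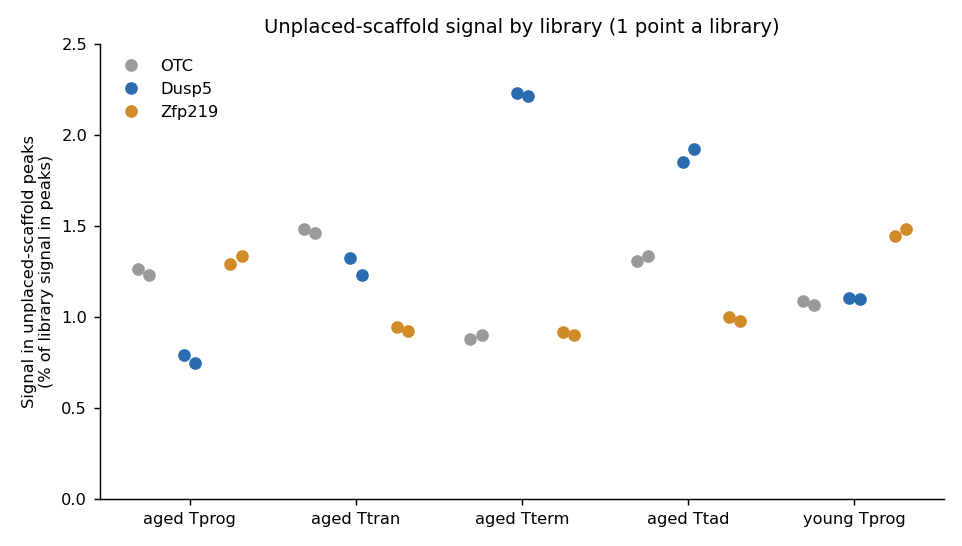
The percentage of all peak signal that lies in the 110 peaks on unplaced sequences is plotted with 1 point per library, by guide and state. The Dusp5 libraries lie below the OTC libraries in aged Tprog (0.788% and 0.745% against 1.27% and 1.23%) and above them in aged Tterm (2.23% and 2.22% against 0.878% and 0.903%).

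The same guide in the other sorted states was read from libraries that the Tprog comparison does not use. At the 351 falls, the Dusp5 guide in aged Ttran cells gave a median of -0.41, with 92.9% of the peaks below 0, and 116 called lower and 0 higher (33.0% lower, against 2.44% of all peaks called lower and 1.36% called higher in that comparison). In aged Ttad cells the median was -0.22 with 71.5% below 0, and 74 were called lower and 11 higher (21.1% and 3.13%, against 1.67% and 1.21%). In aged Tterm cells the median was -0.20 with 68.9% below 0, and 74 were called lower and 60 higher (21.1% and 17.1%, against 2.56% and 1.55%). In young Tprog cells 51.0% were below 0, with 12 called lower and 4 higher (3.42% and 1.14%, against 0.401% and 0.381%). Over all peaks the shares below 0 were 49.0% in Ttran, 49.7% in Ttad, 50.5% in Tterm and 50.8% in young Tprog. At the 96 rises, 76.0% were above 0 in Ttran, 80.2% in Ttad, 68.8% in Tterm and 57.3% in young Tprog, with 13, 13, 10 and 2 called higher. The same peaks were also read against the difference between states in young OTC cells. Of the 351 falls, 100 were called higher and 126 lower in young OTC Tprog than in young OTC Tterm cells, where 13.9% of all peaks were called higher and 12.6% lower, and of the 96 rises 14 were higher and 41 lower. Whether states share mice within a pool is not recorded in the sources used here.

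Of the 60 falls called higher in Tterm, 33 had no gene in reach, 20 of them on unplaced sequences, and 27 had a gene. At the 25 falls on unplaced sequences the Tterm median was 1.24. At the 299 falls with a gene, 95 were called lower and none higher in Ttran, 71 lower and 27 higher in Tterm, 65 lower and 4 higher in Ttad, and 11 lower and 4 higher in young Tprog. Of all peaks, 2.44% were called lower and 1.36% higher in Ttran, and 2.56% and 1.55% in Tterm. In Ttad the shares were 1.67% and 1.21%, and in young Tprog 0.401% and 0.381%. The Runx3 peak at chr4:135168417-135169906 was called lower in all 5 comparisons, by 0.74 in Ttran, 0.44 in Tterm, 0.61 in Ttad and 0.37 in young Tprog on the log2 scale. The Rora peak at chr9:69313017-69315327 was called lower in Ttran, Tterm and Ttad and had -0.10 in young Tprog. The Hsp90aa1 peak was also called higher in Tterm (0.40) and Ttad (0.60), while Hspa1a had 0.12, 0.10 and 0.16 in Ttran, Tterm and Ttad, below the threshold in each.

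**Figure D5:**
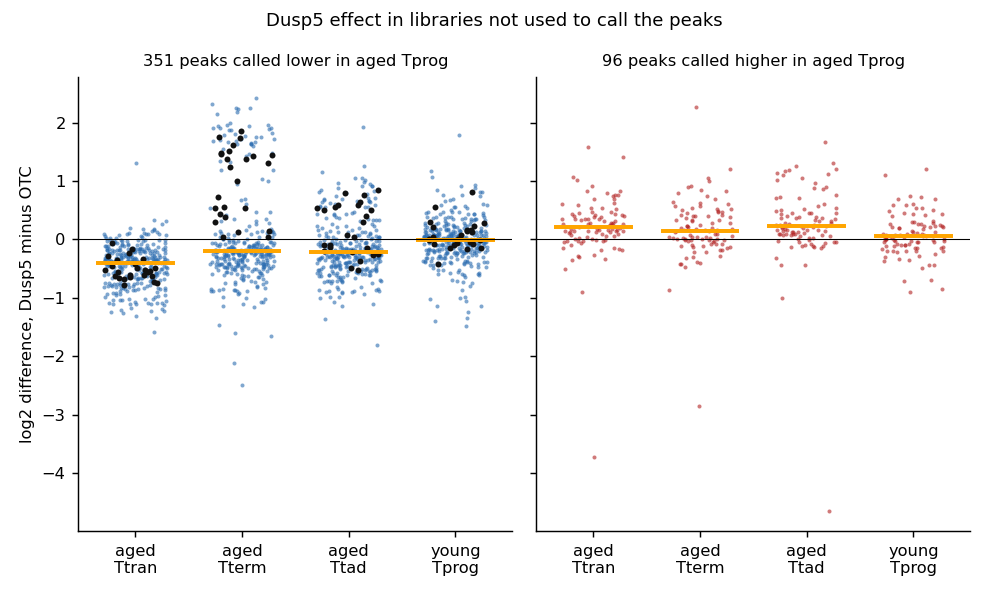
For the 351 falls and the 96 rises of aged Tprog cells, points give the log2 difference, Dusp5 minus OTC, in aged Ttran, Tterm and Ttad and in young Tprog, with an orange bar at the median and black points for peaks on unplaced sequences. The falls have medians of -0.41 in Ttran and near 0 in young Tprog, and of the 25 peaks on unplaced sequences 20 were called higher in Tterm.

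Whether the effect in aged Tprog cells differed from that in young Tprog cells was tested as an interaction, which 289 peaks passed (0.536%; 202 lower in aged, 0.375%, and 87 higher, 0.162%; limma). They included the Rora peaks at chr9:69304122-69306123 (interaction -0.49, adjusted p = 0.0239) and chr9:69339781-69341024 (-0.82, adjusted p = 0.00253), whose young differences were 0.05 and 0.23. Also among them were St3gal1 (-0.69, adjusted p = 0.0115), the stronger Rac1 peak (-0.50, adjusted p = 0.0233), Tbc1d9b (-1.78), the distal Abcb9 peak (-1.26), Prdm1 (-0.76, adjusted p = 0.0374), Cish (-0.92, adjusted p = 0.000817) and Gzmd (-3.87). On the higher side were Hspa1a (0.40, adjusted p = 0.00908), Klrg1 (0.83, adjusted p = 0.028), Cdc27 (1.67), Supt16 (1.29) and Zfp280d (1.38). The Hspa1b and Hsp90aa1 peaks missed the threshold (0.13 and 0.43, limma adjusted p = 0.655 and 0.117). A Dusp5 peak at chr19:53490974-53492708, 36437 bp from the gene, passed this interaction (-0.62, adjusted p = 0.0379), although it was called with neither host age alone. At Armc7 the interaction was -0.01, and the peak was called lower in young cells too (-0.37). Without Dusp5 replicate 1 the count of interaction peaks was 140, and without OTC replicate 1 it was 103.

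A similar interaction set the effect in Tprog against the mean effect in aged Ttran, Tterm and Ttad, and 209 peaks passed (0.388%; 117 lower, 0.217%, and 92 higher, 0.171%; limma). This split moved with the scaling, from 44.0% higher to 19% of 121 peaks under quantile normalization and 58.0% of 286 peaks with edgeR. The start-site peak of Dusp5 was among them (0.39, adjusted p = 0.0426): it differed by 0.18 in Tprog, -0.20, -0.31 and -0.11 in the Ttran, Tterm and Ttad states, and the Tterm difference alone passed the threshold (adjusted p = 0.019). Tsc1 (0.59, adjusted p = 0.0201), H2-D1 (0.37), Hspa1a (0.37, adjusted p = 0.00124) and the rising Prkch peak (0.55) were higher in Tprog by this test. The Hspa1b and Hsp90aa1 peaks missed its threshold (0.27 and 0.11, limma adjusted p = 0.088 and 0.776). At Tsc1 and the Prkch peak the Zfp219 guide was also higher than OTC, with values given further on. The widest difference was at a narrow gene-body peak of Thy1, a surface glycoprotein of T cells (chr9:44046603-44047436). It gave 177 and 222 against 135 and 122 in Tprog, a log2 difference of 0.62 (SE 0.14, limma adjusted p = 0.0122). This call was lost with DESeq2 (adjusted p = 0.316), in a fit of the compared groups alone and with the replicate number as a block. Leaving out certain single libraries also lost it. In young Tprog cells the peak was called higher too (0.69, limma adjusted p = 0.00562). The means with the Dusp5 and OTC guides were 229.9 and 2998 in Ttran cells, 123 and 894 in Tterm cells, 190.1 and 4748 in Ttad cells, and 585 and 364 in young Tprog cells. The interaction was 4.36, and the OTC mean in aged Tprog was 129, below each of the other OTC means.

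Against the Zfp219 guide in the same state and hosts, a comparison that uses no OTC library, 1019 peaks differed (1.89%; 383 higher with Dusp5, 0.711%, and 636 lower, 1.18%; limma). It uses the Dusp5 libraries in which the peaks below were picked, so it is not independent of that choice. Hspa1a was higher with the Dusp5 guide (0.50), as were Hspa1b (0.45), Hsp90aa1 (0.40) and Sobp (2.97). Armc7 (-0.78), the stronger Rac1 peak (-0.33), Tbc1d9b (-1.07) and Stk11 (-0.38) were lower. At the Rora peaks at chr9:69304122-69306123 and chr9:69339781-69341024 the Dusp5 and Zfp219 libraries differed by 0.01 and -0.06, and the Zfp219 guide differed from OTC there by -0.45 and -0.53. At Klrg1 and the Abcb9 peak at chr5:124046786-124047457 the Zfp219 guide differed from OTC by 0.99 and -1.11. The Dusp5 guide differed from OTC less there (0.53 and -0.80). Between the 2 guides the differences at these peaks were -0.47 and 0.31 (limma adjusted p = 0.0619 and 0.381). The Dusp5 and Zfp219 comparisons with OTC share the OTC libraries. St3gal1 (-0.06) and the Runx3 peak at chr4:135158551-135160481 (-0.04) were other falls where the 2 guides lay close to each other. The Zfp219 guide was also higher than OTC at Tsc1 (0.44), the rising Prkch peak (0.48), Atxn1 (1.59) and Thy1 (0.67). Each passed limma (adjusted p = 0.0219, 0.0115, 0.000962 and 0.0023). Between the 2 guides these peaks differed by 0.14, 0.02, -0.004 and -0.04. At Gzmf, close to background, the Zfp219 guide was lower than OTC (-3.24). At H2-D1 it missed the threshold (0.09, limma adjusted p = 0.603). Among the rises of the core set, the Zfp219 guide also differed from OTC at Cdc27 (1.284, limma adjusted p = 0.00738) and Supt16 (1.176, limma adjusted p = 0.000843). Between the 2 guides these peaks differed by 0.378 and 0.342 (limma adjusted p = 0.665 and 0.579). Zfp280d was higher with the Dusp5 guide than with the Zfp219 guide (0.864, limma adjusted p = 0.0373), as was Hspa1a. The count of differing peaks was 351 without Zfp219 replicate 1 and 380 without Dusp5 replicate 1.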

How the data were processed

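ATAC-seq libraries of sorted mouse T cells were analysed from 1 table that the authors deposited, which holds a signal for each of 53868 peaks in 48 libraries of 21 groups. All values in the table were whole reads divided by a size factor of the library (within a tolerance of 0.01 of a read). The build is mm10, and the tools Bowtie2 2.2.9, Picard 2.8.0, SAMtools 1.3.1, MACS2 2.1.1 and DESeq2 1.28.1 are named in the submitters' processing notes, with no role or order. One peak set serves all libraries, and peaks were not called anew here.

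Differences were fitted on log2(signal + 1) with limma 3.58.1 in R 4.3.3, with 1 mean for each of the 21 groups and a trended prior, and p-values were Benjamini-Hochberg adjusted over all peaks. All groups share 1 estimate of the spread, with 27 residual degrees of freedom. The trended prior added at least 66.7 degrees of freedom, so it weighed more than the libraries' own spread at a peak. Alternatives were edgeR 4.0.16 on recovered reads of 47 libraries and DESeq2 1.42.0 on the 4 libraries, besides other scalings, filters and left-out libraries; a library left alone in its group is assumed to vary like the others. The scripts were tested on simulated data with 200 peaks changed 2-fold, of which limma recovered 59% and edgeR 60.5%. False calls numbered 30 with limma and 12 with edgeR, above the nominal rate for both. With no peak changed they numbered 7 and 2. For Dusp5 against OTC in aged Tprog, the count of edgeR calls is given beside that of limma because edgeR made fewer false calls. It is not free of them. Many named peaks carry a limma adjusted p alone, and the counts of interaction peaks and of Dusp5 against Zfp219 rest on limma. Peaks were assigned to the RefSeq GRCm38.p6 gene they overlap, or to the nearest within 100 kb (51108 peaks). Exon, intron and UTR positions were not used here.

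Named peaks were all Dusp5 peaks, the 12 largest rises and 12 largest falls among called peaks with a gene, a mean of at least 20 and no overlap, called peaks of listed genes (or the strongest one), genes with at least 3 called peaks, and the 6 interaction peaks with the smallest p. Others are named as chosen after their values were seen; these include the genes of the core set, the start-site peaks, the chaperones and the small RNA loci. The comparison, lists and rules were chosen with earlier results of these data known. Some members of the lists are not reported here.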

Additional observations from a re-analysis of the deposited data

Results flagged for a closer look

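Tests of the difference between 2 effects of the Dusp5 guide named 289 peaks for aged against young Tprog cells and 209 for Tprog against the mean of the other aged states. The values below are those log2 interactions at peaks the report names, each past an adjusted p of 0.05 by limma. Positive values mean that the effect was higher in aged Tprog cells.

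Against young Tprog cells, the effect was higher at Cdc27 (1.67), Zfp280d (1.38), Supt16 (1.29), Klrg1 (0.825) and Hspa1a (0.396). It was lower at the granzyme genes Gzmd (-3.87) and Gzmf (-2.92), both close to background, and at Tbc1d9b (-1.78), Abcb9 (-1.26), Cish (-0.921), Prdm1 (-0.757), St3gal1 (-0.687) and the stronger Rac1 peak (-0.498). The Rora peaks at chr9:69304122-69306123 and chr9:69339781-69341024 gave -0.491 and -0.822, and the Dusp5 peak at chr19:53490974-53492708 gave -0.622.

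Against the other aged states, the effect was higher at Thy1 (4.36), Ptpn12 (2.21), Atxn1 (1.54), Cdc27 (1.45), Tsc1 (0.588), the gene-body peak of Prkch at chr12:73656093-73657648 (0.548), Hspa1a (0.37), H2-D1 (0.369) and the Dusp5 start site (0.387). It was lower at Vmn1r48 (-3.42), Sult2a3 (-2.89), LOC100504180 (-2.84), Insig2 (-2.66), Smo (-1.82) and the weaker Rac1 peak (-1.43).

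The named peaks on unplaced sequences, and others that fell with them, gave negative values. The widest unplaced peak had -0.866 against young cells and -1.47 against the other states, and the other 2 named unplaced peaks had -1.03 and -0.866, and -1.71 and -1.6. The chromosome 17 peak with no gene had -1.24 and -2.06, Zfp825 -1.09 and -1.89, Apba2 -1.2 and -1.86, Cldn34d -1.16 and -1.14, Smgc -1.66 and -2.07, and Duxf3 -2.08 and -2.67. The 3 peaks near 4932411N23Rik had -2.17, -2.21 and -2.17 against young cells and -1.76, -2.29 and -2.03 against the other states. Of the 3 peaks near Gm21119, which had -2.43, -2.51 and -2.12 against the other states, the middle one also had -1.48 against young cells.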

How the results depend on the processing

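Counts of called peaks moved more when a library was left out than with scaling, though leaving 1 library in a group also lowers the power. Leaving out 1 library at a time, limma called 105 to 298 peaks between Dusp5 and OTC in aged Tprog (447 with all), 103 to 201 for the difference from young Tprog (289), 84 to 194 for the difference from the other aged states (209) and 351 to 670 between Dusp5 and Zfp219 (1019). DESeq2 on the 4 libraries called 153 between Dusp5 and OTC. For the difference from the other aged states, quantile normalization gave 121 and a fit of the compared groups alone 125. With the replicate number as a block the counts were 898, 203, 125 and 916, but same-numbered Dusp5 and OTC libraries did not deviate together (correlation 0.0012 over peaks), so the numbers were not taken as pairs. Other settings kept each count within 1.5 times of its value, including a pseudocount of 8, leaving out the weakest 25% of peaks, TMM factors, edgeR and, chosen after seeing the data, assembled chromosomes only (404, 258, 173 and 975).

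Of 88 of the named peaks, all called but the Dusp5 start-site peak, none changed direction in any setting. Calls were lost for 2 with pseudocount 8, 2 with quantile normalization, 6 with the block, 7 with TMM factors, 9 with edgeR, 11 with the groups alone, 24 of 65 with DESeq2, and 41 to 56 when a library was left out. Of the called peaks, 26 lay in the weakest 10% of peaks and 102 in the strongest; the part of depth in this was not tested. A limit of 20 kb to the gene kept 336 of 392 gene assignments.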

Other observations

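Peaks over genes of small nuclear RNAs, the RNAs of the spliceosome, leaned to the higher side in aged Tprog cells with the Dusp5 guide. Of 56 such peaks 49 were above 0, 5 were called higher and none lower (0.178% of all peaks were called higher), and the median log2 difference was 0.14. Of all peaks, 52.5% were below 0. The medians of the Dusp5 guide at the same peaks were 0.09 in aged Ttran, 0.05 in Tterm, 0.06 in Ttad and 0.04 in young Tprog, and the Zfp219 guide against the same OTC libraries in aged Tprog gave 0.11. At 152 peaks over transfer RNA genes, 124 were above 0, 2 were called higher and the median was 0.12, with 0.20 in Ttran, 0.02 in Tterm, 0.10 in Ttad, 0.02 in young Tprog and 0.04 for the Zfp219 guide in aged Tprog. The transfer RNA peaks took up 0.605% and 0.591% of the signal with the Dusp5 guide and 0.543% and 0.550% with OTC. These loci have many copies, so reads could be split between them. Both groups were chosen after their values were seen.

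Beyond Hspa1a, Hspa1b and Hsp90aa1, the other chaperone and co-chaperone genes had no called peak. Over 14 such genes with 43 peaks, 3 peaks were called higher and 0 lower, beside 0.178% of all peaks called higher and 0.652% lower. In all, 32 peaks were above 0, and the median was 0.11, beside -0.0161 over all peaks, of which 52.5% were below 0. The list was drawn up after the rises had been seen.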
